A study of Mus musculus with 28 samples.

Results

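The genes described here are those of mouse small-intestinal organoids that were higher with BMP4 and lower with BMP2 than in untreated organoids. They were chosen by their measured values. A gene needed a mean of at least 50 normalized counts over the 20 samples of the BMP table. Its group mean had to lie at least 1 log2 unit above the untreated mean with BMP4 and at least 1 log2 unit below it with BMP2, each computed after adding 1 to the means. Each BMP4 sample had to lie above, and each BMP2 sample below, all 4 untreated samples. Of the 29413 genes in the table, 11856 had the required mean, and 251 met the whole rule (2.12% of the 11856). They comprise 243 protein-coding genes, 5 lncRNAs and 3 pseudogenes. The opposite rule, higher with BMP2 and lower with BMP4, held for 104 genes.

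Absorptive enterocytes line the villi of the small intestine. Their brush border carries enzymes that finish the digestion of sugars and peptides, and carriers that take up the products, while the cell interior handles fat, fructose, vitamins and foreign compounds. Cells born in the crypt switch these genes on as they climb the villus. Bone morphogenetic proteins (BMPs) and Tgfb are secreted ligands of one superfamily that act through paired receptors and Smad proteins, and BMP signalling is known to be stronger towards the villus than in the crypt. Many of the 251 genes encode such enzymes and carriers.

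The organoids were crypt-derived epithelial cultures from wild-type (C57BL/6) mice, started for 48 h in ENR medium (EGF, the BMP antagonist Noggin and R-spondin), to which no BMP or Tgfb was added. They then received recombinant BMP2, BMP3, BMP4, BMP5, BMP7 or Tgfb at 500 ng/ml for 24 h, or stayed untreated. The BMP table holds 4 untreated (noBMP), 4 BMP2 and 3 samples each of BMP3, BMP4, BMP5 and BMP7, numbered II, III, IV and VI in the labels. A separate table holds 3 untreated (CTRL) and 3 Tgfb samples. The mesenchymal table holds 1 sample each of freshly isolated duodenal mesenchymal cells from PdgfraH2BeGFP mice and of such cells immortalised with a papillomavirus E6 gene and sorted for high eGFP. The labels do not say whether samples of a group came from separate cultures or animals, so p-values measure the spread between these samples, which may be technical.

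Depth in the BMP table was 21358266 to 24783065 reads per sample, recovered from the deposited values. The epithelial markers Epcam, Cdh1, Krt8, Krt18, Krt19, Vil1 and Cldn7 were detected in every organoid group, with a summed level of 122000 to 137000 normalized counts in the untreated samples. The 10 mesenchymal markers in the table summed to 37.7 to 251 normalized counts per sample over all 6 groups, with Des at 0 in each of the 4 untreated samples. Immune markers summed to 103 to 292 over 12 genes, of which Itgam is itself one of the 251 genes. Endothelial markers summed to more, at 607 to 1130 over 6 genes. They were at 635 to 847 in untreated samples, 863 to 1050 with BMP2 and 942 to 1130 with BMP4. Of these 6 genes, Cdh5, Kdr and Flt1 were at 0 in each untreated sample. The 17 crypt and proliferation markers summed to 180000 to 215000 in untreated samples, 20400 to 26400 with BMP4 and 22300 to 32500 with BMP2. Their part in the results was not tested. In bulk samples such as these, fewer cells of a type and less RNA per cell cannot be told apart.

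Under BMP4 the 251 genes lay between 1.01 and 4.90 log2 units above the untreated mean (median 1.74), and under BMP2 between -6.54 and -1.01 (median -2.18). These values are a description, because the rule used them. Members that were low without BMP4, such as Piwil2, Slc28a1 and Edn2, reached the required mean only through their BMP4 samples. Their BMP4 values had to be large, and such members were not counted. The summed normalized counts per sample differed by group, with means of 19885612 untreated, 26232395 with BMP4 and 27350549 with BMP2. With the same total in every sample, the medians of the 251 were 1.335 with BMP4 and -2.634 with BMP2, and 166 met the rule. After quantile normalization they were 1.613 and -2.035, and 177 met it. All 251 kept both directions under either scaling. The 251 genes took up 2.14% ± 0.429 (SD, n = 4) of the summed normalized counts in untreated samples, 5.96% ± 0.734 (SD, n = 3) with BMP4 and 0.353% ± 0.0546 (SD, n = 4) with BMP2. The lowest BMP4 sample, at 5.12%, was above the highest untreated sample, at 2.54%. The rule put each gene's BMP4 samples above, and its BMP2 samples below, the untreated ones, so these shares are a description too. Just inside the BMP4 threshold lay Etfrf1, Acaa2 and Ces1e (1.01 each), and just outside it Vipr1 (1.0), Slc35g1 and Naip3-ps1 (0.99 each). At the BMP2 threshold Acy3 and Etfb (-1.01) and Akp3 (-1.02) lay just inside, and Acox2, Mtarc2 and Tstd3 (-1.0 each) just outside. A further 24 genes met both fold limits but overlapped the untreated samples, among them the lactase gene Lct, the peptide carrier gene Slc15a1, the enteropeptidase gene Tmprss15 and the maltase-glucoamylase gene Mgam.

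Of the 251 genes, 203 had a promoter in the RefSeq table of build GRCm38.p6, given as 250 bases before to 50 bases after each start. A 7-letter core of HNF4 sites, AAAGTCC, was searched on both strands, because Hnf4g, which encodes a receptor that binds such sites, is one of the 251 genes. It was present in 7.75% of their 258 promoters and in 4.21% of all 32851 promoters. Per gene, 20 of 203 (9.85%) had it, beside 431 of 9066 genes (4.75%) with a mean of at least 50 and a promoter in the table. An HNF1 site core, GTTAATNA, was present in 3.49% of the members' promoters and 2.54% of all. The shares for a CDX site (TTTATGG) were 2.71% and 2.75%, and for a GATA site (AGATAAG) 3.49% and 3.04%. A Smad site (CAGACA) was in 19.8% of the members' promoters and 21.0% of all, a GC-rich Smad site (GGCGCC) in 11.2% and 11.9%, and an interferon element (GAAANNGAA) in 5.43% and 8.56%. Counted per gene, over the 203 members and the 9066 measured genes, the HNF1 core was in 4.43% and 2.01%, the CDX site in 3.45% and 1.97%, and the GATA site in 3.45% and 2.25%. The Smad site was then in 23.2% and 18.6%, the GC-rich Smad site in 13.8% and 24.8%, and the interferon element in 6.9% and 8.57%. For the Smad and CDX sites the 2 ways of counting differed in direction, so neither is read as a difference. A match is a description of the letters and was not tested as a binding site. Stretches upstream of 6 members with large changes or central roles are given here, 5′ to 3′ on the strand of the gene, with the matched letters in capitals. These are the HNF4 core or its reverse complement GGACTTT, in G6pc the HNF1 site core, and in Sis the reverse complement of that core, TNATTAAC.
Slc5a1, chr5:33104105-33104183, plus strand: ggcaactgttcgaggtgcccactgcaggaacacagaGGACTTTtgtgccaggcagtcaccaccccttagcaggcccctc
Treh, chr9:44673127-44673205, plus strand: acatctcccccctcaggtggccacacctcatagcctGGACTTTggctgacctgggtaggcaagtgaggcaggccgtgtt
Slc3a1, chr17:85028273-85028346, plus strand: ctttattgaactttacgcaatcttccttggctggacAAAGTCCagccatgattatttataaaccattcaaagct
Cyp3a11, chr5:145879920-145879998, minus strand: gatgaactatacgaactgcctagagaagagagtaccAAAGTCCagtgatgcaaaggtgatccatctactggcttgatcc
Sis, chr3:72967987-72968066, minus strand: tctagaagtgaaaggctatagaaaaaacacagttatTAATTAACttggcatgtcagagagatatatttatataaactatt
G6pc, chr11:101367466-101367538, plus strand: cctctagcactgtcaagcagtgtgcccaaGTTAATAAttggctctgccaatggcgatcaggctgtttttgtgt
The match ended 72 bases before the start in Slc5a1, 64 in Treh, 32 in Slc3a1, 102 in Cyp3a11, 160 in Sis and 214 in G6pc. Treh had another HNF4 core match, which ended 220 bases before its start.

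The first question outside the rule was what BMP5 and BMP7 did to these genes. Most of them fell with each ligand. By limma on log2(normalized count + 1), with Benjamini-Hochberg adjustment over all 14746 genes tested, 159 of the 251 fell with BMP5 and 1 rose. Over all genes tested, 9.87% were called lower and 16.5% higher with BMP5. With BMP7, 162 fell and 0 rose, where 13.2% of all genes were called lower and 19.2% higher. The median change was -0.84 with each ligand, where the medians of all genes were -0.03 and -0.05. The lower quartile was -1.27 with BMP5 and -1.31 with BMP7. The mean level with BMP5 lay between those with BMP2 and without ligand for 243 of the 251 genes, and with BMP7 for 245. With BMP3 the same held for 217. The rule used the BMP2 and untreated means and set them apart, so these counts are a description. No share over all genes was taken. Exceptions below the BMP2 mean were Ugt1a1, Akr1c14 and Slc16a5 with BMP5, and Akr1c14 with BMP7. The 104 genes of the opposite rule had medians of 1.05 with BMP5 and 0.94 with BMP7. When all samples were scaled to the same total, 173 of the 251 fell with BMP5 and 176 with BMP7. The all-gene calls then split into 2349 higher and 1893 lower with BMP5, and 2575 higher and 2731 lower with BMP7, against 2429 and 1455, and 2833 and 1940, on the deposited scale. After quantile normalization they were 2430 and 2318 with BMP5, and 2749 and 2773 with BMP7. On the deposited scale with the replicate number as a block, 207 of the 251 fell and 1 rose with BMP5. With BMP7, 197 then fell and 2 rose. Of all genes tested, 2593 and 3148 were called lower in those block fits.

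**Figure D1:**
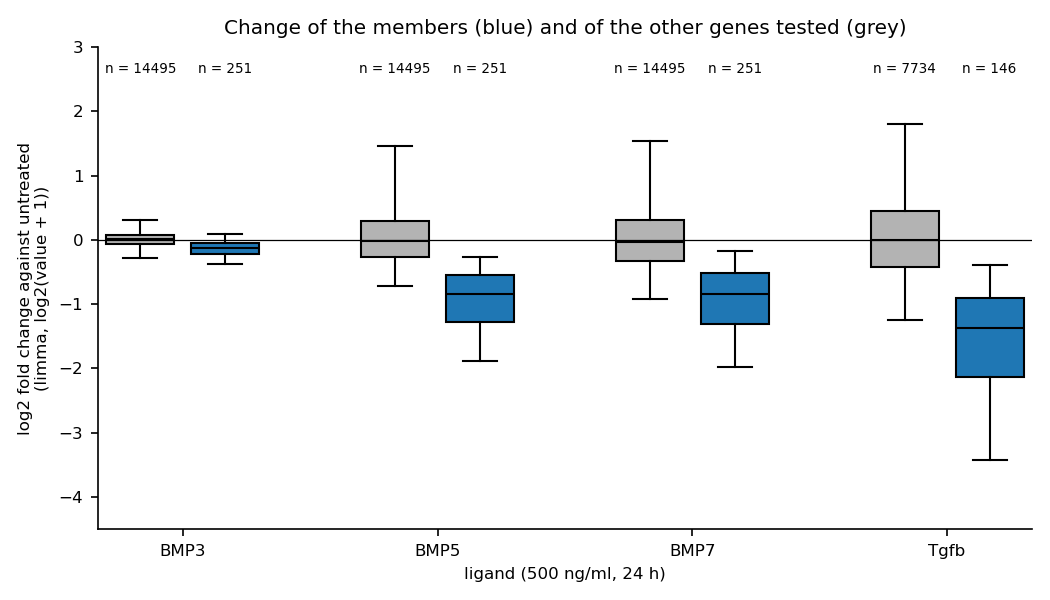
Log2 fold change against the untreated samples of the same table for the genes of the rule (blue) and all other genes tested (grey), for BMP3, BMP5, BMP7 and Tgfb. Boxes span the quartiles with the median as a line, whiskers reach from the 5th to the 95th percentile, and n counts genes. The blue medians are -0.13 with BMP3, -0.84 with BMP5 and BMP7, and -1.38 with Tgfb.

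The untreated samples were among those the rule used, so BMP5 and BMP7 were also set against BMP3, whose samples the rule did not use to choose a fold. No gene of the table passed the test with BMP3 against untreated organoids (0.0% of 14746 in either direction by limma and by edgeR, 1 gene by DESeq2). Among the 251 genes, 0 were called with BMP3 by limma, edgeR or DESeq2, and 1 had an unadjusted p under 0.05 by limma (2 by edgeR and 2 by DESeq2). The median of the 251 with BMP3 was -0.13. Against BMP3, 118 of the 251 fell with BMP5, where 8.69% of all genes were called lower, and 119 fell with BMP7, where 11.7% were. The medians were -0.70 and -0.69. The counts depended on single samples. The counts over all 14746 genes moved as well, and are given beside them. Without BMP5 sample III, 90 of the 251 were called lower with BMP5 against untreated samples, where 713 of all genes were called lower (1455 with every sample), and 52 against BMP3, where 604 were (1282 with every sample). Without BMP3 sample IV, 70 were called lower with BMP5 against BMP3, where 874 of all genes were. Leaving out BMP7 sample II gave 107 lower calls with BMP7 against untreated samples, where 1209 of all genes were called lower (1940 with every sample), and 78 against BMP3, where 1082 were (1728 with every sample). With the replicate number as a block, 181 of the 251 were lower with BMP5 against BMP3 and 1 was higher, where 2338 of all genes were called lower. With BMP7 against BMP3, 177 were then lower and 1 was higher, where 2851 of all genes were called lower.

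BMP5 and BMP7, each at 500 ng/ml for 24 h, were compared directly. Of all genes tested, 0.0136% (2 genes) differed between them by limma, and 0 of the 251 did (0 also by edgeR and DESeq2), with 1 of the 251 at an unadjusted p under 0.05 (1 by edgeR and 2 by DESeq2). The 95% interval of the difference held 0 for 250 of the 251 genes and stayed within 1 log2 unit on either side for 189. The exception was Piwil2, a PIWI-family gene, with means of 6.06 with BMP5 and 11.4 with BMP7, a difference of -0.80 (95% interval -1.50 to -0.11) and an adjusted p of 1 by limma. Next by p came Cisd3 (-0.22), Ly6g2 (0.33), the peptidase gene Dpp4 (0.41, interval -0.08 to 0.90) and Cyp2c55 (-0.47). A p that misses the threshold does not show that the ligands act alike on these genes.

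Tgfb was measured in its own table, in TPM (transcript abundance scaled to the same total in each sample), which has its own controls and shares no sample with the rule. All 251 genes are in that table. A mean of at least 10 TPM was reached by 146, and 54 of those passed through the untreated samples alone, so these had to have a lower Tgfb mean. The Tgfb p-values of such genes, where given below, carry that limit. Of the 146, 136 fell with Tgfb and 2 rose by limma, where 32.9% of the 7880 genes tested were called lower and 31.4% higher. Of the 92 genes with both group means at or above 10 TPM, 84 fell and 2 rose, with a median of -1.15. The share of all genes under that same filter was not counted. This count and the Tgfb counts by role therefore stand without it and are a description. With the filter lowered to a mean of 1 TPM, 243 were tested and 212 fell, where 29.3% of 12959 genes were called lower. The mean was lower with Tgfb for 247 of all 251 genes and higher for Prkg2, Sulf2, Ms4a10 and Edn2. The 105 genes below 10 TPM had untreated means of 0.0959 to 18 TPM, and 8 of the 251 were below 1 TPM on average. The genes took up 1.81% ± 0.215 of all TPM in the controls and 0.666% ± 0.0301 with Tgfb (SD, n = 3 each).

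**Figure D2:**
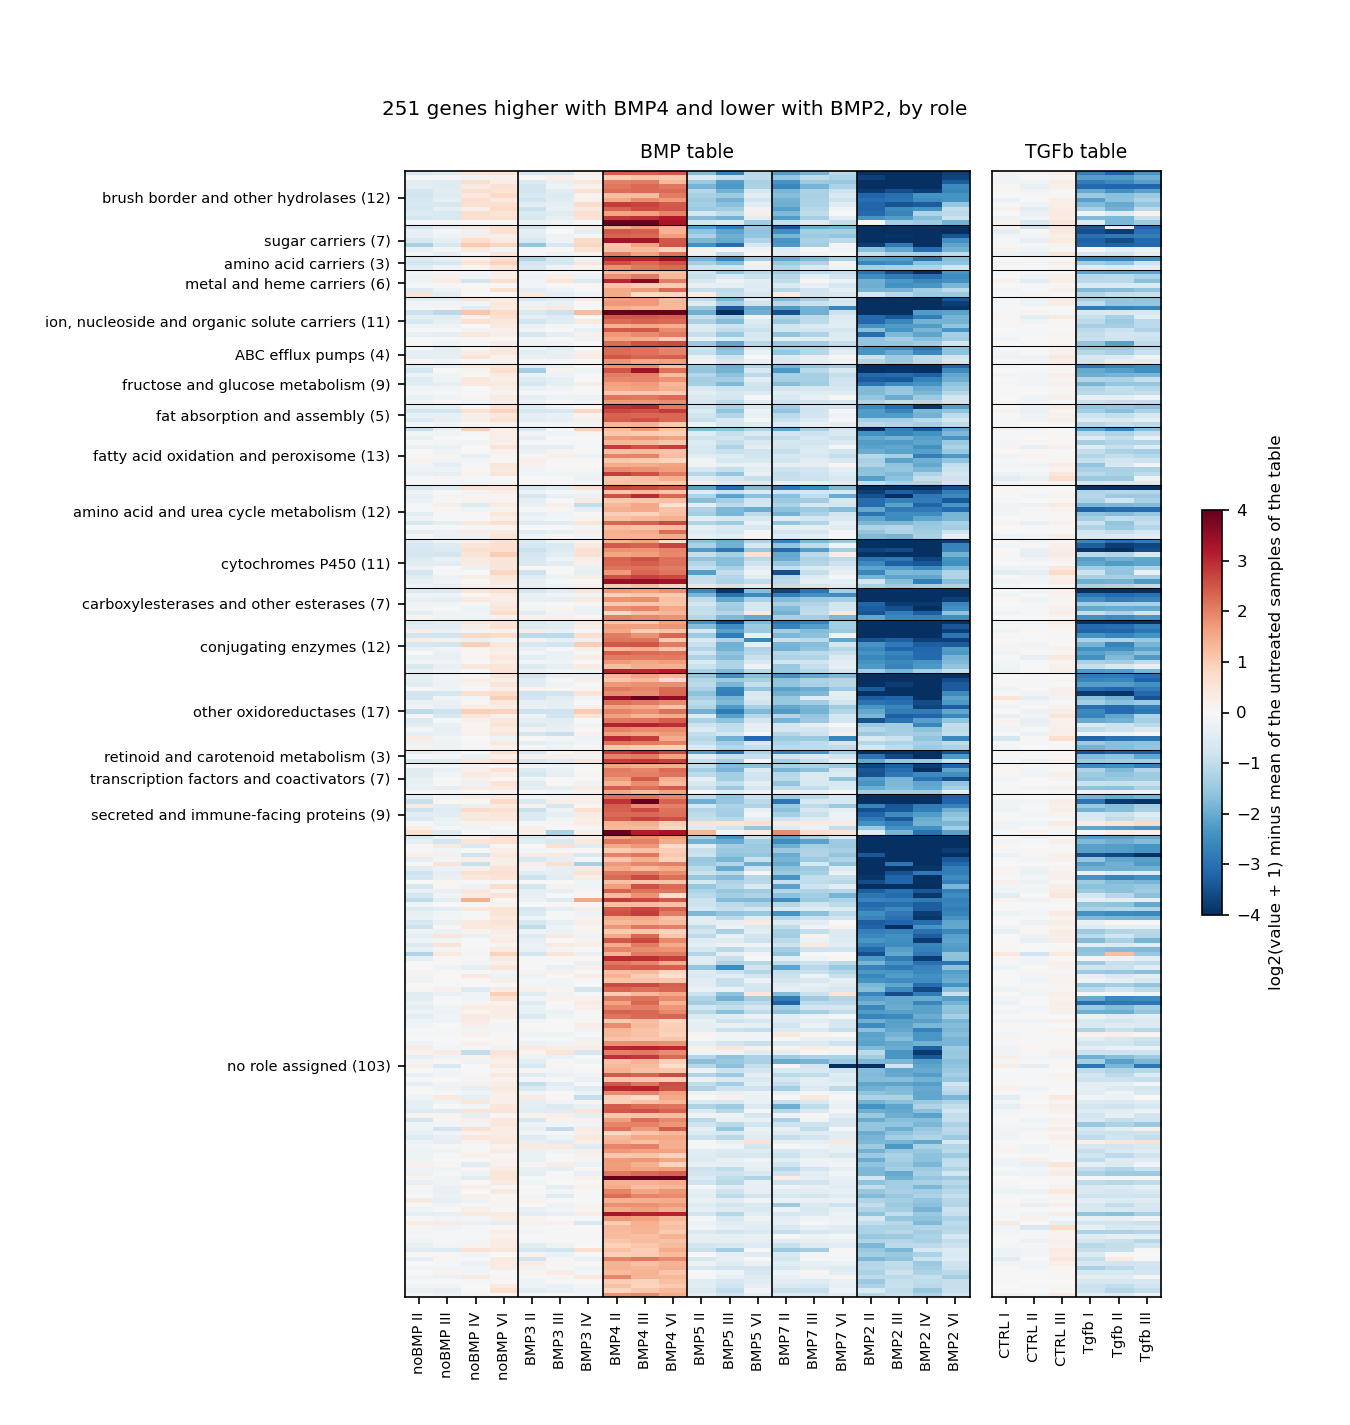
Change of all 251 genes in each sample, as log2(value + 1) minus the mean of the untreated samples of the same table (colour, truncated at -4 and 4). Columns are samples, rows are genes grouped by role with the number of genes in brackets. BMP4 columns are red, BMP2 columns blue, and BMP5, BMP7 and Tgfb columns mostly lighter blue, while BMP3 columns resemble the untreated ones.

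Within the untreated samples the 251 genes varied by replicate number. Their median, relative to the untreated mean, was -0.26 in sample II, -0.17 in III, 0.08 in IV and 0.33 in VI. BMP3 samples II, III and IV lay at -0.27, -0.16 and 0.06. In the BMP2 group the median was -2.30, -2.31 and -2.41 in samples II, III and IV and -1.76 in VI. BMP5 samples II, III and VI lay at -0.83, -1.15 and -0.65, and BMP7 samples II, III and VI at -1.13, -0.80 and -0.60. All 6 of these were below the lowest untreated sample. The 3 Tgfb samples lay at -1.26, -1.26 and -1.17, and their controls at -0.06, -0.08 and 0.13.

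For a description by function, 148 of the 251 genes were placed in 17 roles after the genes were known, so the roles carry no test. Khk, Nags, Slc25a15, Cth, Btnl1, Edn2, Mettl7b, Prkg2, Ugt1a1, Akr1c14, Slc16a5, Cyb5a and Ephx1, and the genes named outside the 251, were singled out after their values were seen. The digestive hydrolases come first. With BMP5, 9 of 12 fell and with BMP7 9 of 12, with medians of -1.20 and -1.30, and 4 of the 5 whose Tgfb mean was also at least 10 TPM fell with Tgfb. A further 7 passed the TPM filter only through the controls and so had to be lower. The counts with Tgfb in the other roles are likewise given without such genes. Sis (ENSMUSG00000027790) encodes sucrase-isomaltase, which splits sucrose and starch fragments. It had 16700, 16200, 37500 and 27900 normalized counts in untreated samples II, III, IV and VI, 93700, 96600 and 56900 with BMP4 and 1330, 1470, 1280 and 2320 with BMP2. With BMP5 the values were 8270, 5000 and 9420, and with BMP7 4510, 8350 and 8120. All 6 lay below the lowest untreated sample. Sis fell by 1.66 (SE 0.337, limma adjusted p = 0.00119) with BMP5 and by 1.78 (SE 0.337, adjusted p = 0.000514) with BMP7 on the log2 scale. In the other table it fell from 546, 557 and 743 TPM to 88.2, 104 and 131 TPM with Tgfb, a log2 change of -2.51 (limma adjusted p = 2.42e-05). Treh, the trehalose-splitting enzyme, changed by -1.92 with BMP7 and -3.15 with Tgfb.

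Enpep (ENSMUSG00000028024) encodes glutamyl aminopeptidase and had the lowest BMP2 value of this role. Its counts were 1300, 1430, 2930 and 2940 untreated, 10800, 10400 and 11100 with BMP4, and 63.6, 69.1, 22.4 and 148 with BMP2. It was at 603, 316 and 924 with BMP5 and 436, 549 and 941 with BMP7, again without overlap with the untreated samples. Dpp4, a dipeptidyl peptidase that also cleaves incretin hormones, fell with BMP5 (-0.87), BMP7 (-1.28) and Tgfb (-2.13). Ace, a carboxypeptidase of the angiotensin system, changed with BMP7 by -1.21 (limma adjusted p = 0.0173), a call that was lost without untreated sample IV or VI or BMP7 sample II (adjusted p = 0.0506 to 0.102). The BMP5 calls of Enpep and Treh were lost without BMP5 sample III (adjusted p = 0.0743 and 0.0666), and the BMP7 call of Enpep without BMP7 sample II (adjusted p = 0.0633).

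Mep1b, which encodes the meprin beta subunit, stood apart within the hydrolases. It had 1400, 1340, 3200 and 2910 counts untreated, 1270, 1010 and 2440 with BMP5, and 600, 1000 and 2040 with BMP7. Both groups overlapped the untreated samples, and neither change passed the test (-0.48, adjusted p = 0.529, and -0.93, adjusted p = 0.17, by limma). With the replicate number as a block, the BMP7 change passed (adjusted p = 0.0158). With Tgfb it was 55.5, 42.3 and 70.9 TPM against 61.3, 50.7 and 78.2 TPM in controls, a change of -0.18 (limma adjusted p = 0.498). Akp3, an intestinal alkaline phosphatase gene close in sequence to its neighbours and so uncertain in its counts, had the largest BMP4 value of the role. It had 3660 to 3890 counts in the untreated samples and 63300, 62300 and 36100 with BMP4, while BMP2 sample II, at 3530, lay just under the untreated range and the other BMP2 samples at 1480, 1380 and 1010. Its calls with BMP5 (-0.89, adjusted p = 0.0364), BMP7 (-0.82, adjusted p = 0.0465) and Tgfb (-1.25, adjusted p = 0.0246) by limma were each lost without any 1 of several samples, untreated ones included (for BMP5 the adjusted p was then 0.0586 to 0.207, for BMP7 0.0706 to 0.145, for Tgfb 0.0687 to 0.0762).

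The sugar carriers had the largest median falls with BMP5 of the roles with at least 5 genes. With BMP5 4 of 7 fell (median -1.67), and with BMP7 4 of 7 (median -1.57). Against BMP3, 4 of 7 were called lower with each ligand (medians -1.53 and -1.43). Slc5a1 (ENSMUSG00000011034) encodes SGLT1, the sodium-coupled glucose and galactose carrier of the brush border. Its counts were 7040, 7560, 10700 and 10300 untreated, 44200, 41700 and 27900 with BMP4, and 530, 586, 245 and 809 with BMP2. They were 3600, 2310 and 3000 with BMP5 and 2430, 3260 and 2950 with BMP7, all below the untreated range, with changes of -1.58 (SE 0.293, limma adjusted p = 0.000534) and -1.61 (SE 0.293, adjusted p = 0.000339). Tgfb took it from 178, 175 and 229 TPM to 23.2, 26.4 and 28.1 TPM. Slc2a5 (ENSMUSG00000028976), the fructose carrier GLUT5, went from 964, 1130, 1020 and 1790 counts to 386, 276 and 388 with BMP5 and 216, 461 and 474 with BMP7. Its log2 change was -1.78 with BMP5, -1.71 with BMP7 and -3.43 (SE 0.246) with Tgfb. Slc2a2, the basolateral carrier GLUT2, changed by -1.67, -1.57 and -3.29 in the same order, and its BMP5 and BMP7 calls were lost without BMP5 sample III (adjusted p = 0.0704) or, for BMP7, without BMP7 sample II (adjusted p = 0.111) or untreated sample IV (adjusted p = 0.0518). Slc2a5 and Slc2a2 passed the TPM filter only through the controls.

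Slc5a11, an inositol carrier gene, was at 2.27, 0, 1.18 and 0 counts with BMP2 against 49.7, 63.1, 123 and 142 untreated, which is at or near the limit of 3 reads. With Tgfb it was at 0.0783, 8.03 and 0.186 TPM, so that 1 sample lay within the control range of 5.63 to 15.2 TPM. Slc5a9, a mannose carrier gene, had 147, 169, 237 and 164 counts untreated, 210, 184 and 161 with BMP5, and 131, 173 and 163 with BMP7, with changes of 0.06 and -0.19 that did not pass the test (limma adjusted p = 0.891 and 0.608).

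**Figure D3:**
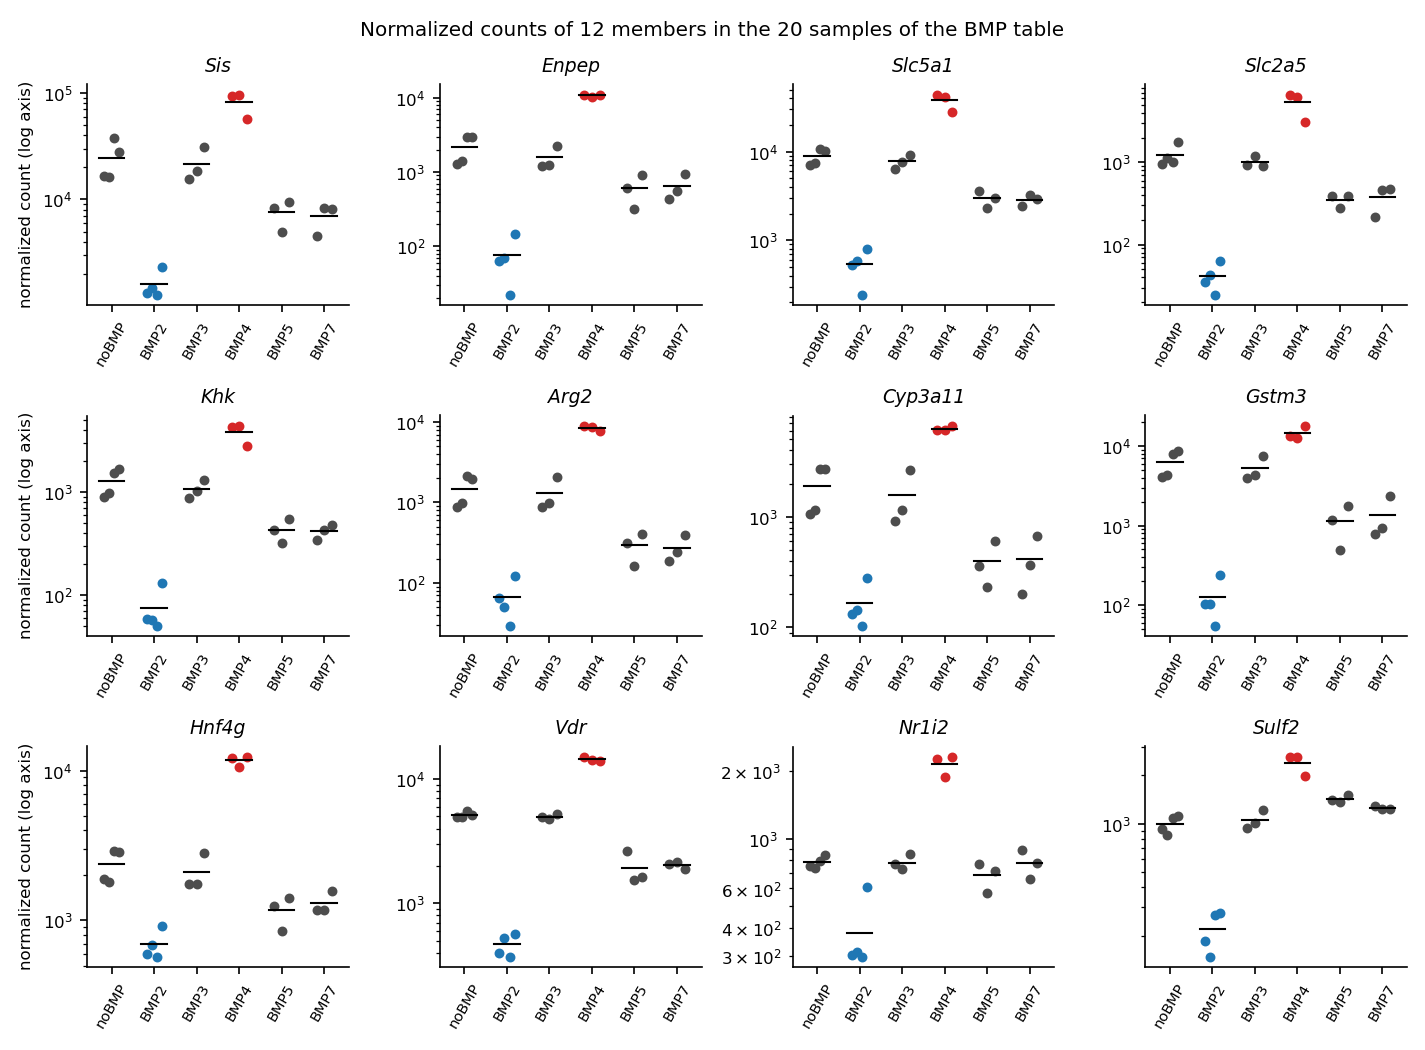
Normalized counts (log axis) of 12 genes in the 20 samples of the BMP table. Points are samples, horizontal lines are group means, BMP4 is red and BMP2 blue. Nr1i2 stays near its untreated level with BMP5 and BMP7 and Sulf2 lies above it, while the other 10 genes lie between the BMP2 and untreated levels.

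Carriers of other solutes followed. Slc6a19, the neutral amino acid carrier B0AT1, fell with BMP5 (-1.96), BMP7 (-1.71) and Tgfb (-2.56), from 706, 839, 1290 and 1660 counts to 291, 174 and 400 with BMP5. Slc6a20a, the imino acid carrier, changed by -0.97 and -0.86 with BMP5 and BMP7 and did not pass the test (limma adjusted p = 0.169 and 0.2), but passed with the replicate number as a block (adjusted p = 0.016 and 0.0301). Among metal and heme carriers, 4 of 6 fell with BMP5 and 4 of 6 with BMP7 (2 and 3 against BMP3). The iron carrier gene Slc11a2 was not among them. It had 2960, 4170, 2080 and 5360 counts untreated, 28500, 43400 and 14200 with BMP4, 2180, 2970 and 2500 with BMP5 and 1700, 3550 and 2850 with BMP7. The last 6 overlapped the untreated samples. With Tgfb it fell by 1.27 (limma adjusted p = 0.00213).

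Of the 11 carriers of ions, nucleosides and organic solutes, 9 fell with BMP5 and 10 with BMP7 (5 and 3 against BMP3). Slc28a1, a concentrative nucleoside carrier gene, had the lowest BMP5 value of all 251 genes. It was at 10.7, 9.13, 45.2 and 36.3 counts untreated, 341, 338 and 379 with BMP4, and 4.48, 0 and 4.56 with BMP5, a change of -2.77 (limma adjusted p = 0.0163). That call was lost without BMP5 sample III (adjusted p = 0.128) or untreated sample IV (adjusted p = 0.0513), and few reads lie behind the low values. Slc28a1 reached the mean that the rule required only through its BMP4 samples, so its BMP4 value had to be large. The sterol efflux pump genes Abcg5 and Abcg8, whose products work as a pair, changed by -1.04 and -1.02 with BMP7 and by -1.10 and -1.35 with Tgfb. The Abcg5 call with BMP7 was lost without BMP7 sample II (adjusted p = 0.101). Abcc2, an exporter of conjugates, did not pass with BMP5 (-0.38), BMP7 (-0.27) or Tgfb (-0.46).

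Fructose handling was present beyond uptake. Beside Slc2a5, the 251 genes include Khk (ketohexokinase) and Tkfc (triokinase), enzymes that carry fructose towards glycolysis. Khk had 888, 983, 1540 and 1690 counts untreated, 4270, 4420 and 2780 with BMP4, and 59, 57.5, 50.6 and 132 with BMP2. With BMP5 it was at 425, 318 and 542 and with BMP7 at 340, 431 and 477, below the untreated range in each sample. Khk changed by -1.55 with BMP5 (limma adjusted p = 0.000797), -1.57 with BMP7 and -2.66 with Tgfb, and Tkfc by -1.30, -1.20 and -1.88. Of the 9 genes of fructose and glucose metabolism, 7 fell with BMP5 and 7 with BMP7 (6 and 6 against BMP3). With Tgfb 6 of 6 fell, beside 2 that passed the TPM filter only through the controls. G6pc, the glucose-6-phosphatase that releases free glucose, changed by -1.40 and -1.33 with BMP5 and BMP7, short of the threshold (limma adjusted p = 0.0582 and 0.062). With the replicate number as a block both passed (adjusted p = 0.00969 and 0.0111).

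Per transcript length, Fabp1, a fatty acid binding protein of the cytosol, was the highest of the 251 in the untreated samples of the Tgfb table, at 3077 TPM ± 631 (SD, n = 3). Fabp1 was at 2891, 2560 and 3780 TPM in controls and 1033, 1060 and 982 TPM with Tgfb (log2 change -1.57, limma adjusted p = 0.000109). In the BMP table it had 10800, 11000, 13900 and 19600 counts untreated, 101000, 109000 and 57000 with BMP4, 7420, 5590 and 9190 with BMP5 and 5080, 7730 and 7880 with BMP7. The groups did not overlap, yet the BMP5 change of -0.89 fell short (limma adjusted p = 0.0524, and 0.0272 with the replicate number as a block) and the BMP7 change of -0.99 passed (adjusted p = 0.0268, and 0.0509 to 0.136 without untreated sample IV or VI or BMP7 sample II). Of the 5 genes of fat absorption and assembly, 1 fell with BMP5 and 2 with BMP7 (0 and 0 against BMP3). With Tgfb 4 of 4 tested fell. Mttp, which loads lipid onto apolipoprotein B, changed by -0.75 with BMP5 (adjusted p = 0.0559), -0.69 with BMP7 (adjusted p = 0.0668) and -0.83 with Tgfb (adjusted p = 0.0006) by limma, and both BMP changes passed with the replicate number as a block (adjusted p = 0.00448 and 0.00637). Mogat2, which rebuilds triglyceride, changed by -0.50 with Tgfb (limma adjusted p = 0.00582) and did not pass with BMP5 (-0.52) or BMP7 (-0.46). Fatty acid oxidation and peroxisomal genes fell in 11 of 13 cases with BMP5 and 10 of 13 with BMP7, with medians of -0.69 and -0.74. Against BMP3 the counts were 8 and 9 of 13. Ehhadh, a bifunctional peroxisomal enzyme, changed by -0.67 with BMP5, -0.65 with BMP7 and -1.27 with Tgfb, and its calls were lost without BMP5 sample III (adjusted p = 0.0905) or BMP7 sample II (adjusted p = 0.0659).

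Genes of amino acid and urea cycle metabolism held some of the strongest falls. With BMP5, 9 of 12 fell and with BMP7 10 of 12 (8 and 8 against BMP3). Arg2 (ENSMUSG00000021125), the mitochondrial arginase, was at 883, 996, 2110 and 1960 counts untreated, 9060, 8700 and 7810 with BMP4, and 64.7, 49.9, 29.4 and 121 with BMP2. It fell to 312, 161 and 408 with BMP5 (-2.33, SE 0.439, limma adjusted p = 0.000623) and 186, 240 and 396 with BMP7 (-2.40, SE 0.439, adjusted p = 0.000365). With Tgfb it went from 98.7, 90.7 and 93.2 TPM to 4.20, 3.31 and 3.15 TPM (-4.39, SE 0.103, limma adjusted p = 4.7e-07). Arg2 thus passed the TPM filter only through the controls and had to have a lower Tgfb mean. Nags, which makes the activator of the urea cycle, fell by 1.42 with BMP5 and by 1.30 with BMP7 on the log2 scale. Slc25a15, the mitochondrial ornithine carrier, fell less, by 0.66 and by 0.69, and its BMP5 call was lost without BMP5 sample III (adjusted p = 0.0554). Cth, cystathionine gamma-lyase of cysteine synthesis, was tight between replicates, at 1880, 2050, 1720 and 2150 counts untreated and 825, 553 and 490 with BMP5, and changed by -1.68 with BMP5 and -3.13 with Tgfb.

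Enzymes that process drugs and other foreign compounds formed a broad block. By the start of the gene symbol, the 251 included 11 of the 28 Cyp genes with a mean of at least 50 (39.3%), 6 of 9 Ugt genes (66.7%), 5 of 8 Ces genes (62.5%) and 3 of 4 Adh genes (75.0%). They also included 26 of 222 Slc genes (11.7%), while the rule took 2.12% of all such genes. Close copies within these families can exchange reads, so values of single Ces, Ugt, Cyp2c, Cyp3a, Gstm and Adh members are uncertain. With BMP5, 8 of 11 P450 genes, 6 of 7 esterase genes, 9 of 12 conjugating enzyme genes and 14 of 17 genes of other oxidoreductases fell. With BMP7 the counts were 7, 6, 11 and 13. Against BMP3 they were 7, 6, 9 and 11 with BMP5, and 5, 6, 9 and 11 with BMP7. With Tgfb, 5 of 5 P450, 3 of 3 esterase, 5 of 5 conjugating and 8 of 8 oxidoreductase genes fell, and 4, 2, 5 and 4 more passed the TPM filter only through the controls.

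Ces1f, a carboxylesterase gene, had the lowest BMP2, BMP7 and Tgfb values of the 251. It was at 496, 491, 1060 and 1160 counts untreated, 9.08, 1.28, 3.53 and 16.5 with BMP2, 122, 49.1 and 229 with BMP5 and 55.4, 96.6 and 288 with BMP7. Its log2 changes were -2.72 with BMP5, -2.67 with BMP7 and -4.96 with Tgfb (limma adjusted p = 0.00386, 0.00362 and 1.54e-06). In TPM it went from 45.4, 40.6 and 52.1 to 0.276, 0.564 and 0.687, so that it passed the TPM filter only through the controls. Gstm3, a glutathione transferase, was at 4060, 4380, 8020 and 8760 counts untreated, 13400, 12600 and 18100 with BMP4, 1180, 495 and 1750 with BMP5 and 777, 932 and 2340 with BMP7. Its change with Tgfb was -4.83 (SE 0.238, limma adjusted p = 5.35e-06). Cyp3a11, the main drug-oxidising P450 of the mouse gut and liver, had 1050, 1150, 2700 and 2730 counts untreated, 357, 230 and 606 with BMP5 and 201, 369 and 673 with BMP7. It fell by 2.23 with each of these ligands and by 3.82 with Tgfb on the log2 scale.

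Cyp2b10, the classic target of the xenobiotic receptor CAR, had 2660, 2740, 5590 and 6450 counts untreated, 1680, 1080 and 2590 with BMP5 and 1360, 1970 and 3590 with BMP7, and neither change passed (-1.26, adjusted p = 0.0742, and -0.92, adjusted p = 0.175, by limma), though the BMP5 change did with the replicate number as a block (adjusted p = 0.0147). With Tgfb it went from 149, 151 and 186 TPM to 15.6, 10.8 and 12 TPM (-3.57). The sizes in the separately scaled tables were not compared by a test. Maob, a monoamine oxidase, was at 507 to 902 counts untreated, 220, 118 and 202 with BMP5 and 123, 157 and 188 with BMP7 (-1.89 and -2.07, limma adjusted p = 6.29e-05 and 1.75e-05). Rdh7, a retinol dehydrogenase, fell by 2.13 and by 2.12 with BMP5 and BMP7 on the log2 scale. The retinaldehyde dehydrogenase Aldh1a1, whose reads may mix with those of Aldh1a7, changed by -1.68 with BMP5 (limma adjusted p = 0.0267, and 0.0753 to 0.181 without untreated sample IV or VI or BMP5 sample III), and by -3.62 with Tgfb.

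**Figure D4:**
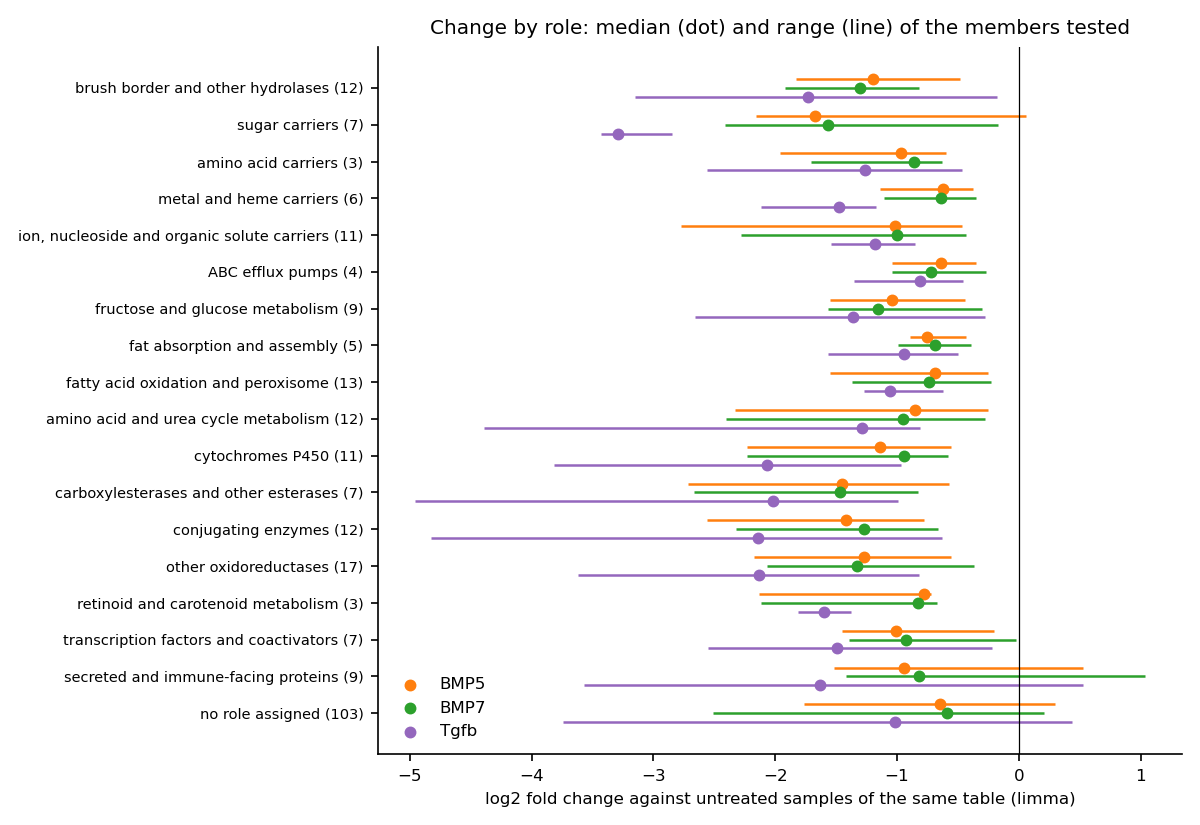
Log2 fold change by role with BMP5 (orange), BMP7 (green) and Tgfb (purple), each against the untreated samples of its table. Dots are medians and lines the range over the genes tested, and brackets give the number of genes in the role. The Tgfb values include the 54 genes that passed the TPM filter only through the controls. All medians lie below 0, and lines cross 0 for sugar carriers with BMP5, for secreted and immune-facing proteins, and for genes without a role.

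The 251 genes include 7 transcription factors and coactivators, most of them nuclear receptors. Hnf4g (ENSMUSG00000017688), an enterocyte-enriched paralogue of Hnf4a, had 1880, 1810, 2890 and 2880 counts untreated, 12200, 10600 and 12400 with BMP4, and 597, 687, 574 and 915 with BMP2. It was at 1250, 847 and 1410 with BMP5 and 1180, 1170 and 1560 with BMP7, below every untreated sample, with changes of -1.01 (SE 0.222, limma adjusted p = 0.00229) and -0.84 (SE 0.222, adjusted p = 0.00755). With Tgfb it went from 63.5, 61.8 and 76.8 TPM to 21.5, 20.6 and 28.1 TPM (-1.49). Hnf4a itself was not among the 251, with log2 values of 1.02 for BMP4 and 0.19 for BMP2.

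Vdr (ENSMUSG00000022479), the vitamin D receptor, had close replicates, with counts of 4940, 4960, 5520 and 5150 untreated, 15200, 14200 and 13900 with BMP4, and 401, 528, 373 and 568 with BMP2. With BMP5 they were 2620, 1530 and 1640, and with BMP7 2090, 2140 and 1900. It changed by -1.45 with BMP5 (SE 0.156, limma adjusted p = 2.16e-06), -1.33 with BMP7 (SE 0.156, adjusted p = 3.69e-06) and -2.55 with Tgfb (SE 0.0943). Ppara, the fatty acid sensor, changed by -1.07 with BMP5 and -0.75 with BMP7 (limma adjusted p = 0.00404 and 0.0297), the latter call being lost without untreated sample IV or VI or BMP7 sample II (adjusted p = 0.0813 to 0.162). Nr1i3, which encodes CAR, changed by -1.39 with BMP7 (limma adjusted p = 0.0117, and 0.0721 without BMP7 sample II). Nr1i2, which encodes the related receptor PXR, did not follow. It had 755, 740, 796 and 847 counts untreated, 773, 573 and 717 with BMP5 and 889, 664 and 777 with BMP7, with changes of -0.20 and -0.02 (limma adjusted p = 0.487 and 0.942). With Tgfb its change was small, at -0.22 (adjusted p = 0.0312), a call that was lost without any 1 of 5 of the 6 samples (adjusted p = 0.0511 to 0.095).

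Secreted and immune-facing products were the most mixed role, with 4 of 9 lower and 1 higher with BMP5, and 2 of 9 lower with BMP7. Against BMP3, 3 and 2 of 9 were lower, and 0 were higher with either ligand. Leap2, which encodes an antimicrobial peptide and ghrelin receptor antagonist, was at 64.8, 128, 129 and 206 counts untreated, 901, 1930 and 632 with BMP4, 30.5, 40.8 and 58.4 with BMP5 and 15.4, 78.3 and 74.1 with BMP7. The BMP5 change of -1.52 was at the threshold (limma adjusted p = 0.049) and was lost without any 1 of 6 of the 7 samples (adjusted p = 0.0644 to 0.136), and the BMP7 change of -1.42 did not pass (adjusted p = 0.0574). With Tgfb it fell from 41.8, 43.6 and 55.9 TPM to 5.10, 2.37 and 2.14 TPM (-3.57, limma adjusted p = 2.9e-05). Leap2 thus passed the TPM filter only through the controls and had to have a lower Tgfb mean. Btnl1, a butyrophilin-like protein that supports intraepithelial T cells, changed by -0.69 with Tgfb (limma adjusted p = 0.00141). Tgfbi, an extracellular matrix protein gene known as a Tgfb target in other cells, was at 82.6, 46.5, 52.3 and 80.9 counts untreated, 38.6, 25.9 and 26.5 with BMP5 and 22.7, 30.1 and 22.1 with BMP7 (-1.07 and -1.33, limma adjusted p = 0.00728 and 0.00107). Of 14 genes on a list of Tgfb targets tested in the BMP table, 12 were called higher with BMP5 and 1 lower, which was Tgfbi. In the Tgfb table Tgfbi was low in all samples, at 2.79, 2.97 and 3.75 TPM in controls and 0.507, 0.250 and 0.589 TPM with the ligand. Agr2, a disulfide isomerase of mucus-secreting cells, is the goblet marker among the 251. It fell with BMP5 (-0.94, limma adjusted p = 0.0118, and 0.105 without BMP5 sample VI) and Tgfb (-2.19). The summed level of the 9 goblet markers was 25900 to 41900 counts untreated, 92200 to 151000 with BMP4, 30300 to 67500 with BMP2, 17700 to 31600 with BMP5 and 18700 to 38200 with BMP7, and their part in the result was not tested.

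A few genes left the common direction. Sulf2 (ENSMUSG00000006800), an extracellular sulfatase that edits heparan sulfate, had 926, 847, 1080 and 1120 counts untreated, 2600, 2620 and 1980 with BMP4, and 184, 148, 267 and 276 with BMP2. With BMP5 it was at 1410, 1370 and 1510 and with BMP7 at 1280, 1230 and 1230, above all untreated samples. The rise with BMP5 was 0.53 (SE 0.175, limma adjusted p = 0.031), and that with BMP7 was 0.34 (adjusted p = 0.152, and 0.0434 with the replicate number as a block). With Tgfb it rose from 13.6, 13.3 and 19.5 TPM to 19.0, 21.8 and 26.9 TPM (0.53, limma adjusted p = 0.0355), with 1 control above 1 Tgfb sample. These calls rest on few samples, since the BMP5 call was lost without any 1 BMP5 sample or without untreated sample II or III (adjusted p = 0.0545 to 0.111), and the Tgfb call without any 1 of 4 of the 6 samples (adjusted p = 0.0701 to 0.108).

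Ms4a10, a membrane protein gene, was at 52.2, 53.6 and 58.8 TPM in controls and 65.5, 76.3 and 83.4 TPM with Tgfb, a rise of 0.44 (limma adjusted p = 0.00812) without overlap. With BMP5 and BMP7 its changes were 0.08 and -0.08. Prkg2, a cGMP-dependent protein kinase gene, changed by -0.07, 0.14 and 0.16 with BMP5, BMP7 and Tgfb and passed in none (limma adjusted p = 0.755, 0.458 and 0.0967). Edn2, which encodes endothelin 2, had 40, 18.3, 25.7 and 23.1 counts untreated, 506, 234 and 264 with BMP4 and 98.0, 42.8 and 37.5 with BMP7, a change of 1.04 (limma adjusted p = 0.147, and 0.0305 with the replicate number as a block). Mettl7b, a methyltransferase-like gene, was at 47.9 to 65.7 counts untreated, 61.1 to 75.0 with BMP5 and 58.1 to 67.4 with BMP7, ranges that overlap. Piwil2 had the largest BMP4 value of the 251, with 13.3, 10.8, 8.87 and 17.3 counts untreated and 492, 368 and 351 with BMP4. Piwil2 and Edn2 reached the mean that the rule required only through their BMP4 samples. Their BMP4 values therefore had to be large, and the rank of Piwil2 is a description.

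Tgfb and BMP7 could be set side by side gene by gene, using BMP3 as the reference for BMP7 so that the 2 comparisons share no sample. Over the 146 genes tested in both tables, Pearson's r between the log2 changes was 0.87 and Spearman's rho 0.84 for BMP7, and 0.93 and 0.92 for BMP5. These are correlations across genes, which are not independent replicates, and genes with low counts have smaller changes on the log2(value + 1) scale in both tables. Of the 146, 54 passed the TPM filter only through the controls and so had to have a lower Tgfb mean. Over all 7772 genes tested in both tables the values were 0.92 and 0.93 for BMP7, and 0.92 and 0.94 for BMP5, so the 251 did not stand out from all genes in this.

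**Figure D5:**
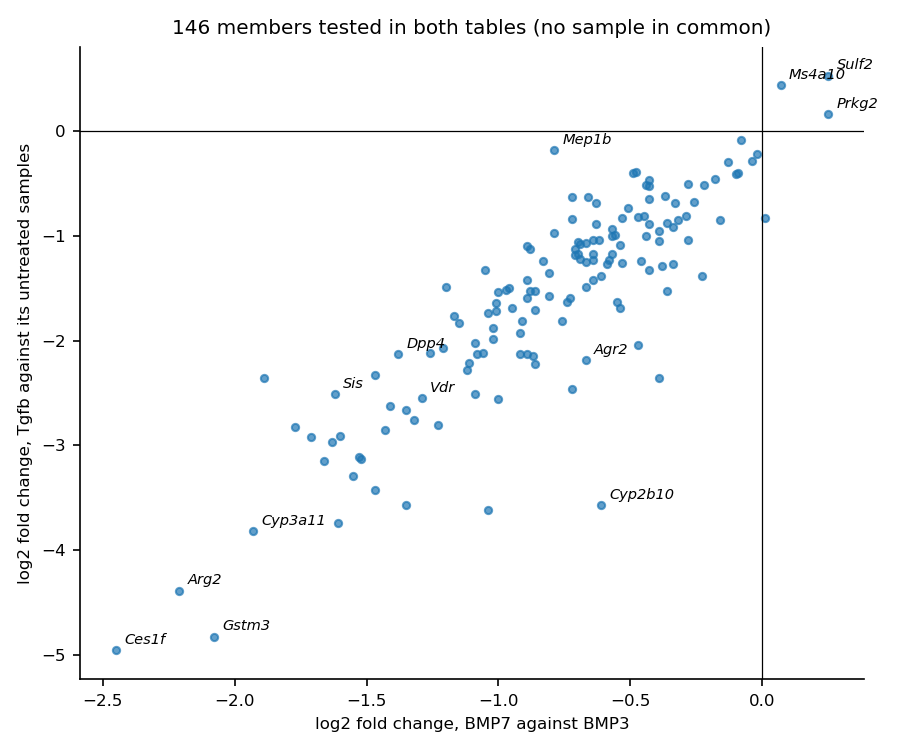
Log2 change with BMP7 against BMP3 (horizontal) and with Tgfb against its own controls (vertical) for the 146 genes tested in both tables. Each point is a gene. Most lie below and to the left of 0, with Ces1f, Gstm3 and Arg2 at the lower left, and Sulf2, Ms4a10 and Prkg2 above 0 on both axes. The 146 include 54 genes, Ces1f and Arg2 among them, that passed the TPM filter only through the controls. These had to have a lower Tgfb mean.

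The 251 genes were a selected share of the absorptive programme. On lists of enterocyte genes, all 5 sugar transporter genes with a mean of at least 50 were members, as were 8 of 13 brush border peptidases and 17 of 27 xenobiotic enzymes and efflux pumps. Of 13 genes of microvillus structure 1 was a member, Cobl, while 7 were at least 1 log2 unit higher with both BMP4 and BMP2, among them Vil1 (2.17 and 1.54) and Cdhr2 (2.46 and 2.20). Of 16 genes of triglyceride and chylomicron synthesis 2 were members, and 8 were higher with both ligands, among them Apob (2.41 and 2.31). On the villus tip list 0 of 16 were members and 13 were higher with both, including Ada (3.66 and 4.87) and Krt20 (4.38 and 4.93). On the interferon list 0 of 23 were members and 18 were higher with both. Of 15 genes of fatty acid oxidation and ketogenesis, 4 were members, and 9 were higher with BMP4 and within 1 log2 unit of untreated with BMP2, among them Cpt1a (1.73 and 0.54). Anpep, the aminopeptidase N gene, missed the rule on BMP4 (0.67) but was 4.31 log2 units lower with BMP2 (-4.31). These are levels of the samples the rule used, with no test.

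On the same lists the tests with BMP5 and BMP7 gave different counts. Among microvillus genes 0 of 14 fell with BMP5 and 5 rose, and 0 fell and 6 rose with BMP7. Among villus tip genes 0 of 17 fell and 10 rose with BMP5, and 12 rose with BMP7. Among brush border peptidases 9 of 13 fell with each, and 1 rose with BMP7. Of 27 xenobiotic enzymes and pumps, 14 fell with each and 0 rose. The last 2 lists hold 8 and 17 of the 251. Of 9 other brush border enzymes 0 fell, while 2 rose with BMP5 and 3 with BMP7. Of 12 peptide and amino acid transporters, 2 fell with BMP5 and 4 with BMP7, and 1 rose with BMP7. Of 5 brush border sugar hydrolases, 2 fell with BMP5 and 3 with BMP7, and 1 rose with each. Over all genes tested, 9.87% were called lower and 16.5% higher with BMP5, and 13.2% and 19.2% with BMP7. The 10 fetal-like and regenerative markers included 0 members. Of these, 9 rose with BMP5 and 9 with BMP7, and their summed level was 9360 to 12900 counts untreated, 234000 to 275000 with BMP2 and 16200 to 29400 with BMP4, while BMP5 samples lay at 55200 to 113000 and BMP7 samples at 78100 to 111000. In the other table that sum was 137 to 152 TPM in controls and 5470 to 6530 TPM with Tgfb. The part of these markers in the fall of the 251 genes was not tested.

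In the mesenchymal samples most of the 251 genes were low. In fresh mesenchymal cells 71 were at 0 (28.3%) and 133 below 1 TPM (53.0%), where 5.89% and 12.9% of the 11856 genes with a mean of at least 50 were. In the immortalised cells 80 were at 0 (31.9%) and 144 below 1 TPM (57.4%), where 7.34% and 15.0% of the 11856 genes were. Sis, Slc5a1, Slc6a19, Cyp3a11 and Ces1f were listed at 0 in both. Among the highest were the electron carrier gene Cyb5a (146 and 170 TPM) and the epoxide hydrolase gene Ephx1 (145 and 159 TPM). With 1 sample each, these levels have no replicate check.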

How the data were processed

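RNA of organoids from 20 BMP-table samples, 6 Tgfb-table samples and 2 mesenchymal samples was sequenced as single-end reads after preparation with an mRNA library kit, per the labels. Per the submitters' processing notes, Trim Galore, Salmon, DESeq2 and GRCm39 were used, with no order or version given. The BMP table holds normalized counts (a signal scaled per sample), as the authors deposited them with 3 significant digits. The values in the other tables sum to 1000000 per sample, so these deposited values were taken as TPM. Tables were scaled separately, and tests stayed within a table.

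Each low value of up to 20 reads (180721 values, 100% within 0.2%) was a whole multiple of 1 read, worth 0.826 to 1.279 normalized counts, so reads were recovered for the count alternatives. A count test had been foreseen for raw counts. On these units limma 3.58.1 (R 4.3.3) was fitted on log2(value + 1) to genes with a mean of at least 10, with all groups of a table in 1 fit and Benjamini-Hochberg adjustment. Fold changes on that scale understate the change of low genes. A call is an adjusted p under 0.05. Alternatives were edgeR 4.0.16 and DESeq2 1.42.0 on recovered reads, other scalings, pseudocounts and filters, only the groups compared, the replicate number as a block, and leaving out each sample. The fits were tested on simulated data.

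Samples with the same number deviated together in the BMP table (correlation 0.15 to 0.489 between BMP5 and BMP7, and 0.158 to 0.553 against untreated samples), so the numbers pair them. The reported fit leaves this pairing out, and its p-values and calls carry that limit. Block fits are given as an alternative, for single genes only in part. In the Tgfb table samples with the same number did not deviate together (-0.019 to 0.141). The members, the 28 gene lists and the roles were chosen with earlier results of these data known. Genes named in full were the 25 with the highest mean, the 15 with the largest BMP4 to BMP2 difference, members on the lists, the 5 that rose and the 5 that fell most per ligand, the 5 with the smallest p between BMP5 and BMP7, and the 3 nearest each threshold on either side. No sample column was unmapped. Reads lying in close copies were split by the authors' counting in ways not given in the sources used here.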

Additional observations from a re-analysis of the deposited data

Results flagged for a closer look

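In groups of 4 samples, a sample stood apart when its gap to the nearest other, divided by the group's range, was above Dixon's critical value, which chance gives in about 1 in 20 groups. Among 132 groups of the genes named in the text 10 did so, 9 of them in the BMP2 group, each time with sample VI as the highest. In BMP2 sample VI, Rdh7 was at 24.0 counts against 10.2 to 10.6 in the others (gap over range 0.971), Nr1i2 at 607 against 298 to 313 (0.951), Khk at 132 against 50.6 to 59.0 (0.897) and Slc9a3 at 78.5 against 15.9 to 22.4 (0.896). Slc2a2 was at 159 against 35.8 to 50.0 (0.885), Tkfc at 1470 against 641 to 744 (0.876), Ms4a10 at 353 against 132 to 162 (0.864), Aldh1a1 at 654 against 184 to 251 (0.857) and Mme at 373 against 160 to 194 (0.840). Over all 251 genes the median of that sample was -1.76, where the other BMP2 samples lay at -2.30 to -2.41. Without it the rule took 282 genes, of which 249 are among the 251. In untreated sample IV, Prkg2 was at 2080 against 1760 to 1800 (0.875).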

How the results depend on the processing

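The number of genes that met the rule was 122 with a limit of 1.5 log2 units each way and 469 with a 1.5-fold limit, and 238 to 282 when single samples were left out. With the same total in every sample 234 genes met it (166 of the 251), and after quantile normalization 198 (177 of the 251). Leaving out 1 sample gave 90 to 167 called members with BMP5 (90 without BMP5 sample III), 107 to 167 with BMP7 (107 without BMP7 sample II), 0 with BMP3, 0 between BMP5 and BMP7 and 132 to 137 with Tgfb. Against BMP3 it gave 52 to 118 with BMP5 and 78 to 114 with BMP7. With the replicate block 208 members were called with BMP5, 199 with BMP7, 182 with BMP5 against BMP3, 178 with BMP7 against BMP3, 0 with BMP3 and 0 between BMP5 and BMP7. These member counts are calls in either direction. The calls over all 14746 genes also moved. In either direction they numbered 2515 to 4298 with BMP5 and 3517 to 4673 with BMP7 when 1 sample was left out. With the block they were 5738 and 6689, against 3884 and 4773 as reported. Against BMP3 they were 2102 to 4077 and 3121 to 4372, and 5094 and 6007 with the block, against 3496 and 4353. Lower calls numbered 713 to 1748 with BMP5 and 1209 to 1870 with BMP7 when 1 sample was left out, and 2593 and 3148 with the block, against 1455 and 1940. Against BMP3 they were 594 to 1669 and 1036 to 1715, and 2338 and 2851 with the block, against 1282 and 1728. Between BMP5 and BMP7 the block gave 6 calls in place of 2. In the Tgfb table, where the numbers do not pair the samples, the block gave 141 called members, where 5414 of all 7880 genes were called. All-gene calls there were 4391 to 4737 when 1 sample was left out, against 5065. With a mean of at least 1 TPM 214 members were called with Tgfb, where 7348 of 12959 genes were. With at least 50 TPM 45 of the 47 tested were called, where 1749 of 2560 genes were. Of the 66 genes followed singly, 22 of 41 BMP5 calls, 25 of 41 BMP7 calls and 43 of 46 Tgfb calls were kept in each alternative run, and 0 called values changed sign. Among values short of the threshold, 4 with BMP5, 6 with BMP7 and 1 with Tgfb did. The depth of the Tgfb table is unknown, and groups of 3 or 4 limit the precision.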
